A study of Mus musculus with 14 samples.

Results

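The genes described here encode the machinery through which thyroid hormone acts on transcription: the thyroid hormone receptors Thra and Thrb, the retinoid X receptors (RXRs) Rxra, Rxrb and Rxrg, the corepressor Ncor1 and the coactivators Ncoa1, Ncoa2 and Ncoa3. They were found by symbol in the deposited tables of fetal mouse brain RNA sequencing, where each symbol had 1 entry, giving 9 genes of the 41934 listed. At E13.5 and at E18.5 alike, the mean normalized count of all 9 was 10 or more, which held for 17794 of all genes.

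Whole brains came from male fetuses on the C57BL/6J background, the littermates of matings between Dio3+/- mice. At the earlier embryonic day, E13.5, there were 4 Dio3+/+ and 2 Dio3-/- libraries, and at E18.5 there were 3 Dio3+/+ and 5 Dio3-/- libraries. The Dio3-/- fetuses carry point mutations that inactivate DIO3, the deiodinase that degrades thyroid hormone, in every cell and not in the brain alone. They still make Dio3 mRNA, so its level does not check the genotype labels. The value given for each gene is the mean normalized count that the authors computed over all libraries of an age, with both genotypes pooled. The genotypes are not compared here, and no single-library value, replicate error or test lies behind any value below.

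Thyroid hormone receptors sit on DNA mostly as heterodimers with an RXR. Without the hormone T3 they recruit corepressors such as NCoR1, which bring in histone deacetylase 3, and T3 binding exchanges these for p160 coactivators, which bring in histone acetyltransferases. In the developing brain this switch governs the timing of neuronal and glial differentiation, and RXRs also pair with the retinoic acid, vitamin D and other receptors.

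To compare levels between genes, each mean was divided by the sum of all means at its age, multiplied by 1000000, and divided by the length in kilobases of the gene's merged exons; this quantity is called the level. The ratio between ages is that of the scaled means before division by length. The sums were 28582629 at E13.5 and 24565726 at E18.5, and the lowest means fit size factors between 0.827 and 1.15 for the 6 libraries at E13.5 and between 0.947 and 1.17 for the 8 at E18.5. Errors given with the values are counting errors worked out from these size factors. They treat the authors' counts, which had been adjusted for batch, as plain read counts, and they leave out the variation between fetuses. The ages differ in the share of Dio3-/- libraries and were normalized separately, so age and genotype mix cannot be told apart in any ratio.

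The labels were checked before the levels were compared. Xist, the RNA that coats the inactive X chromosome of females, had a mean of 5249 at E13.5 and 2568 at E18.5, although every library was labelled male. The Y-linked genes Ddx3y, Eif2s3y, Kdm5d and Uty had means from 1211 to 1863 at E13.5 and from 1004 to 1304 at E18.5. The Xist level goes against the labels, and its source was not tested. Reads of Xist and of its antisense partner Tsix cannot be told apart when counted without strand, and a pooled mean does not show which libraries carry them, so no value below could be given without them. All 14 brain markers had means above 10 at both ages. The summed level of 3 astrocyte markers was 5.18 at E13.5 and 30.9 at E18.5. That of 6 cartilage and head mesenchyme markers was 71.0 and 23.4, of which Sox9 held 38.4 and 18.3 and Col2a1 21.7 and 1.87. All 6 of these markers were lower at E18.5. The summed level of 4 red cell markers was 1393 and 79.4, of which Hbb-y held 1187 and 0.512. The ratios of the other red cell markers, Hba-a1, Hbb-bt and Alas2, were 0.391, 0.347 and 0.684. None of these 13 markers was at 0 at either age. However, Gfap at E13.5 and Hbb-y at E18.5 had means below 10, at 4.71 and 7.95. The part of such tissue and cell type differences in the results below was not tested, and in whole brain fewer cells of a type and less RNA per cell cannot be told apart.

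By level, Thra was the most abundant of the 9 genes at both ages and Thrb the least. Between the ages Thra, Thrb, Rxrg and Ncoa1 stood higher at E18.5 by over 1.5-fold, Rxra stood lower by over 1.5-fold, and Rxrb, Ncor1, Ncoa2 and Ncoa3 lay between these limits. Thus 4 of 9 were higher, beside 19.6% of the 17794 genes with means of at least 10, and 1 of 9 was lower, beside 16.5%. With the means left as deposited the shares over all genes were 14.5% and 28.6%. The median ratio over all these genes was 0.956, or -0.07 on the log2 scale.

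**Figure D1:**
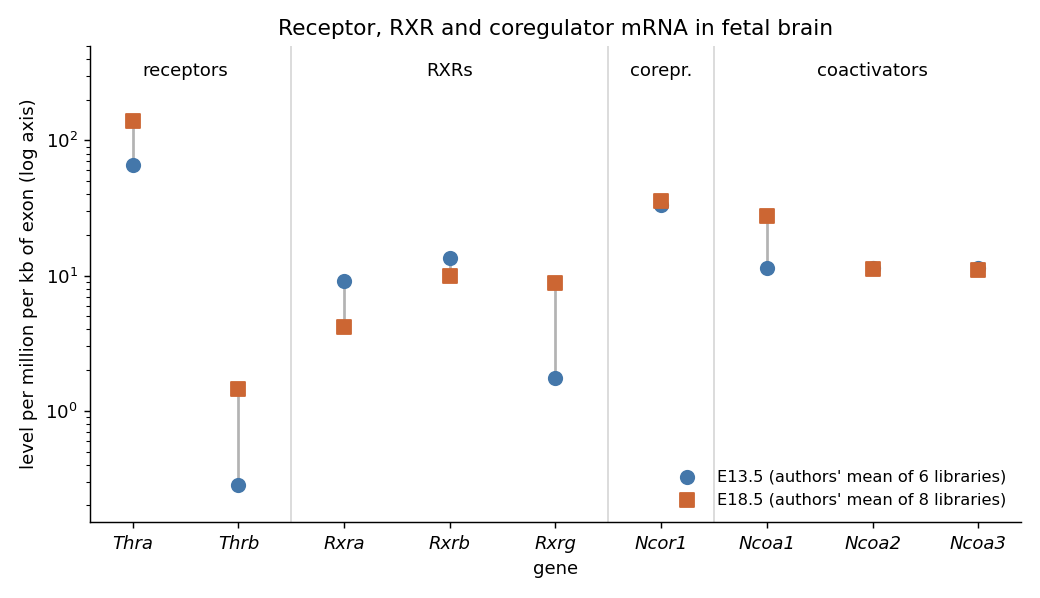
Level of each of the 9 genes, in scaled means per kb of exon on a log axis, at E13.5 (circles) and E18.5 (squares); each point is the authors' mean over all libraries of the age and has no replicate error. Thra is highest at both ages, at 65.9 and 139, and Thrb is lowest, at 0.282 and 1.44.

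Thra encodes the receptor that predominates in brain. Its mean normalized count was 8696 at E13.5 and 15798 at E18.5, and its level was 65.9 and 139. The ratio was 2.11, with a 95% counting interval of 2.09 to 2.14, and its level stood above that of 97.9% and 99.4% of the genes with a mean of at least 10 at each age. Thra (ENSMUSG00000058756) lies on chromosome 11, from 98740638 to 98769006 on the plus strand of GRCm38, with 9 annotated transcripts, of which 4 are coding.

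A gene-level count of Thra adds up products with opposite properties. Thra-202 has 9 exons and a coding sequence for 410 residues, the length of the hormone-binding receptor TRα1, and Thra-201 has 10 exons and codes for 492 residues, the length of TRα2, which does not bind T3. Both share their first exons apart from the start and differ at the end. The primer pair that the study lists for the alpha 1 isoform is printed because it shows where these transcripts part, with no capitals since each primer matched along its whole length.
Thra forward: ctttgaactgggcaagtcac
Thra reverse: tggccgcctgaggctttagacttc
The forward primer, of 20 bases, was found in 3 of the 9 transcripts, namely Thra-201, Thra-202 and Thra-203. The reverse primer, of 24 bases, was found on the opposite strand of Thra-202 alone, so that the pair spans 352 bases of that transcript and of no other Thra transcript. The levels of Thra given here hold every transcript of the gene and are no measure of TRα1.

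The last exon of Thra-201 runs into the last exon of Nr1d1, the gene of the clock repressor REV-ERBα on the opposite strand. They share 263 bases, 5.70% of the merged Thra exons. Thra-202 ends 2820 bases before Nr1d1 and shares none. The reads were counted without strand, so a read from the shared stretch cannot be assigned to either gene. Nr1d1 had means of 130 at E13.5 and 300 at E18.5, far below those of Thra, and a ratio of 2.67. When exon bases covered by another gene were left out, the Thra to Thrb ratio of levels was 248 at E13.5 and 103 at E18.5.

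**Figure D2:**
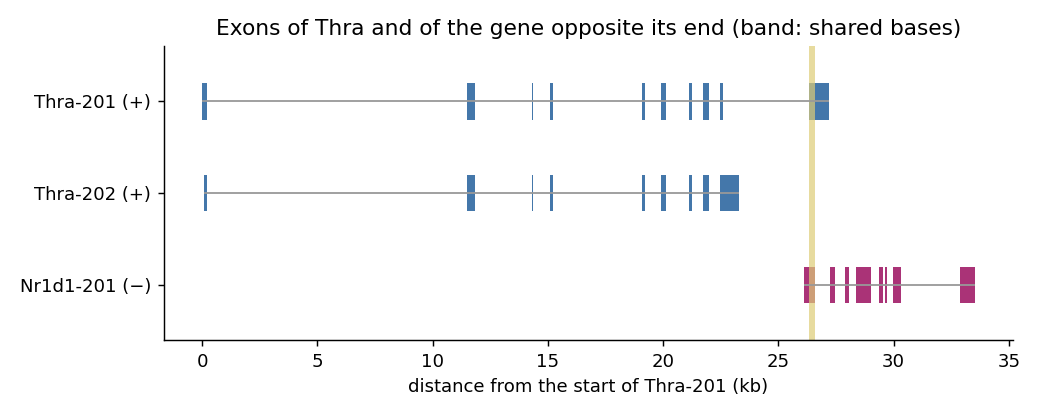
Exons (boxes) of Thra-201, Thra-202 and Nr1d1 drawn to scale by distance in kb from the start of Thra-201, with the strand in parentheses and the 263 shared bases as a band. The band crosses the last exon of Thra-201 and none of Thra-202.

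Thrb encodes TRβ, which in brain is best known from later stages, and from the cochlea, retina and pituitary. Its mean was 59.8 at E13.5 and 262 at E18.5, and its level 0.282 and 1.44. The counting error was 5.29% and 2.18% of these means, the largest among the 9 genes. The ratio of 5.10, with a counting interval of 4.56 to 5.71, stood above 98.4% of all ratios. By qPCR of wild-type brains of both sexes, the paper reports more Thrb mRNA, measured as its Thrb1 isoform, at E18.5 than at E13.5. It also reports more Thrb mRNA in Dio3-/- brains at E13.5, and the share of Dio3-/- libraries was larger at E18.5. The part of genotype in this ratio was not tested. At E13.5 only 9.23% of genes with a mean of at least 10 had a lower level. Thrb lies on chromosome 14, from 17660261 to 18038090 on the plus strand, with 7 transcripts and no exon shared with another gene.

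The balance between the 2 receptor genes differed between the ages. The level of Thra was 233 times that of Thrb at E13.5 and 96.7 times at E18.5, so that Thrb made up 0.426% and 1.02% of their sum. These multiples depend on the length used: they were 368 and 152 with the longest transcript, and 140 and 58.2 with the coding length. The multiple at E18.5 was 0.414 of that at E13.5, a figure in which length cancels out.

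The RXRs differed from one another in direction. Rxra had a mean of 1421 at E13.5 and 558 at E18.5, with levels of 9.10 and 4.16. Its ratio was 0.457, with a counting interval of 0.441 to 0.474, which is 2.19-fold lower at E18.5. Rxrb had means of 1544 and 966, levels of 13.6 and 9.90, and a ratio of 0.728, inside the 1.5-fold limit, though without scaling the ratio was 0.626 and passed it. Rxrg was low at E13.5, with a mean of 114 and a level of 1.74, and had a mean of 501 and a level of 8.87 at E18.5. Its ratio of 5.10, with a counting interval of 4.70 to 5.53, lay within the interval of Thrb. Rxrg is the RXR with the narrowest expression in the body, known from striatum, pituitary and muscle, whereas Rxrb is found in nearly all tissues.

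Summed over the 3 genes, the RXR level was 24.4 at E13.5 and 22.9 at E18.5, and with the coding length it was 72.7 and 55.9. Rxra made up 37.2% at E13.5 and 18.1% at E18.5, Rxrb 55.6% and 43.2%, and Rxrg 7.12% and 38.7%. With the coding length the order turned: Rxra made up 48.8% at E13.5, ahead of Rxrb at 47.3%, and 29.0% at E18.5, ahead of Rxrg at 26.2%. Over all other measures of length the Rxrg share lay between 3.96% and 7.12% at E13.5 and between 26.2% and 38.7% at E18.5. The sum of Thra and Thrb was 2.71 times the RXR sum at E13.5 and 6.14 times at E18.5. Over the other measures of length this multiple ran from 2.855 to 3.818 at E13.5 and from 6.51 to 9.02 at E18.5. The receptor and RXR sums count mRNA and say nothing of the heterodimers formed.

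**Figure D3:**
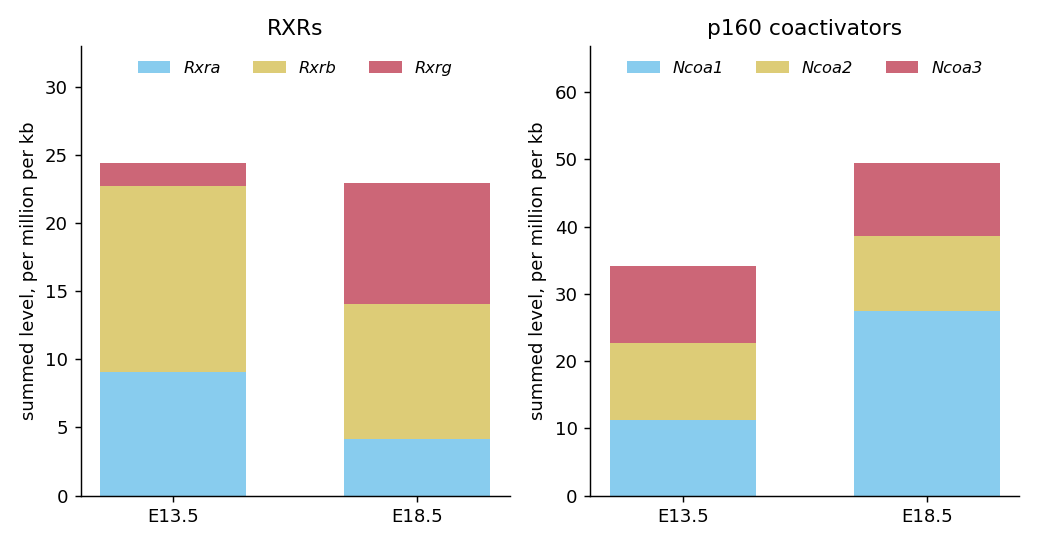
Summed levels, in scaled means per kb, of the 3 RXR genes (left) and the 3 p160 coactivator genes (right) at each age, stacked by gene; bars start at 0 and carry no replicate error. The RXR bars reach 24.4 and 22.9, with Rxrg at 1.74 and 8.87 of them, and the Ncoa1 part of the coactivator bars is 11.3 at E13.5 and 27.4 at E18.5.

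Rxra lies on chromosome 2 from 27676440 to 27762957, Rxrb on chromosome 17 from 34031812 to 34038399, and Rxrg on chromosome 1 from 167598384 to 167639623, all on the plus strand and with no exon shared with another gene. Rxrg, with 2297 bases of merged exon, is the shortest of the 9 genes by this measure.

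Start-site windows were read from RefSeq (build GRCm38.p6), each from 250 bases before to 50 after an annotated start. There were 11 windows for 6 of the 9 genes: Thrb, Rxra, Rxrb, Rxrg, Ncor1 and Ncoa1. The half-site AGGTCA, the hexamer to which receptors and RXRs bind, was searched on both strands, where it reads TGACCT on the other. It was in 3 of the 11 windows, beside 16.3% of all 32851 windows of the same length. The arrangement that thyroid hormone receptors and RXRs are best known for, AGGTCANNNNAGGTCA, was searched on both strands too and was in 0 of the 11 windows and in 0.0152% of all windows. They belong to Thrb, Rxrg and Rxra, and their 250 bases before the start are printed with the half-sites in capitals.
Thrb, first of its 2 starts: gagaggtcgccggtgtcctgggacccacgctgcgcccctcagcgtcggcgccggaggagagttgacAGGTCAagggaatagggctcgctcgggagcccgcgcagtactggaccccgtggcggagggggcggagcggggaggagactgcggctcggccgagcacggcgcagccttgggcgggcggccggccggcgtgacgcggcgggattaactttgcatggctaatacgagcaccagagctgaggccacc
Rxrg, second of its 2 starts: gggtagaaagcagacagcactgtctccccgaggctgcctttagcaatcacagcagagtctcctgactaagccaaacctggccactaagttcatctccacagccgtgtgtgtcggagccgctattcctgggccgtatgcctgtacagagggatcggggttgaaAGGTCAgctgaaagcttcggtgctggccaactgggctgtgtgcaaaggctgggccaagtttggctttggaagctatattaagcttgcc
Rxra, second of its 2 starts: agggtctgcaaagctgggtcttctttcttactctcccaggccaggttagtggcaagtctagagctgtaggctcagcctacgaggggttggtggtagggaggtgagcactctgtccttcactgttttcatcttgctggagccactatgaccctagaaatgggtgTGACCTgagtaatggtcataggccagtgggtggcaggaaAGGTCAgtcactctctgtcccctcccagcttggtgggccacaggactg
These are chr14:17660710-17660959, chr1:167618015-167618264 and chr2:27709042-27709291, each on the plus strand. Thrb and Rxrg hold 1 half-site each and Rxra holds 2, on opposite strands. The letters mark a match to the hexamer and not a bound site, and the direction of the ratio was not shared: Thrb and Rxrg were higher at E18.5 and Rxra was lower. The Thrb window has a GC content of 72.7%, against 57% for Rxrg, 54.3% for Rxra and a median of 52.7% over all windows.

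Ncor1, whose product bridges the unliganded receptor to histone deacetylase 3, had the second highest level of the 9 genes at both ages. Its mean was 12172 at E13.5 and 11183 at E18.5, and its level 33.2 and 35.5. The ratio was 1.07, and over 4 other scalings it ran from 0.919 to 1.12, so its direction depends on the scaling. Ncor1 lies on the minus strand of chromosome 11 from 62316426 to 62458541 and has 25 annotated transcripts, the most in this group. Its exons share 82 bases with Pigl and 1 base with Ttc19, together under 1% of its 12811 bases of merged exon.

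Among the p160 coactivators Ncoa1 was higher at E18.5, while Ncoa2 and Ncoa3 lay between the limits. At E13.5 Ncoa1 stood at 11.3, Ncoa2 at 11.4 and Ncoa3 at 11.5 per kb of merged exon, but with the longest transcript Ncoa2 stood at 21.9, against 13.2 for Ncoa1 and 12.0 for Ncoa3, so no order among them can be given. At E18.5 Ncoa1 stood at 27.4, against 11.2 for Ncoa2 and 10.9 for Ncoa3. Ncoa1, or SRC-1, had means of 2770 and 5771 and a ratio of 2.42, with a counting interval of 2.38 to 2.47. Ncoa2, or GRIP1, had means of 5115 and 4303 and a ratio of 0.979, which ran from 0.841 to 1.02 over the other scalings. Ncoa3, or SRC-3, had means of 2590 and 2124, and its ratio of 0.954 ran from 0.820 to 0.998. Ncoa1 made up 33.0% of the summed p160 level at E13.5 and 55.3% at E18.5, or 26.4% and 47.2% with the coding length and 28.04% and 49.34% with the longest transcript.

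The level of Ncor1 was 0.971 times the p160 sum at E13.5 and 0.717 times at E18.5. These multiples were 0.683 and 0.540 with the coding length, and 0.999 and 0.775 with the longest transcript. Ncoa1 lies on chromosome 12 from 4247362 to 4477182 and Ncoa2 on chromosome 1 from 13139105 to 13374083, both on the minus strand, and Ncoa3 on chromosome 2 from 165992636 to 166073242 on the plus strand. Ncoa3 shares 154 exon bases with Sulf2, 1.95% of its merged exons, and Ncoa1 shares 68 with 4921501I09Rik, 0.793% of its own. Sulf2 had means of 8156 and 5407, above those of Ncoa3 itself.

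**Figure D4:**
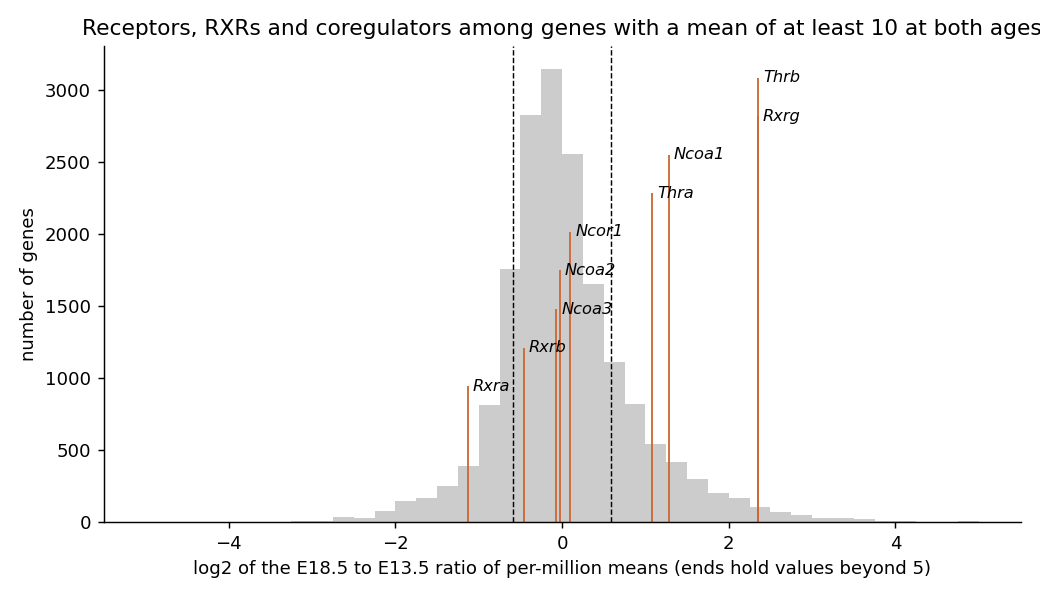
Number of genes by the log2 ratio of scaled means between E18.5 and E13.5, for the 17794 genes with a mean of at least 10 at both ages; vertical lines place the 9 genes and dashed lines mark 1.5-fold in each direction. Thrb and Rxrg lie together at 2.35, Ncoa1 at 1.28 and Thra at 1.08, while Rxra lies at -1.13.

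The receptors were set beside the whole nuclear receptor family, listed as 49 genes. Thra had the highest level of the 49 at both ages, ahead of the orphan receptors Nr2f1 (COUP-TF1), at 56.3 and 30.4, and Nr2f2 (COUP-TF2), at 41.3 and 22.5. With the coding length in place of merged exons Thra ranked 3 at E13.5 and 1 at E18.5. Rxrb ranked 5 at E13.5 and 8 at E18.5, Rxra 9 and 16, Rxrg 23 and 10, and Thrb 34 and 27. Of the 49 genes 37 had means of at least 10 at both ages, and of these 15 were over 1.5-fold higher at E18.5, 10 lower and 12 between, with a median ratio of 0.979. The highest ratios were those of Nr3c2, the mineralocorticoid receptor, at 6.63, and of Thrb and Rxrg. Low ratios were those of Nr2e1, which keeps neural progenitors dividing, at 0.287 and of Nr5a1 at 0.296. Leaving out Thra, Thrb and the RXRs, 12 of 32 were higher and 9 were lower, beside the 19.6% and 16.5% of all genes.

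**Figure D5:**
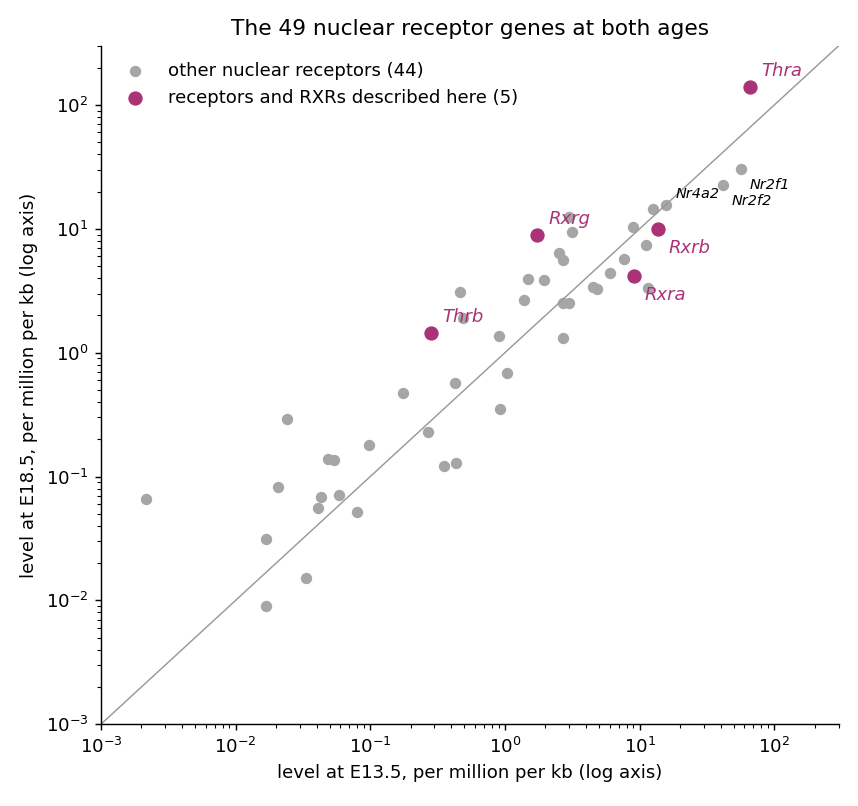
Level of the 49 nuclear receptor genes at E13.5 (horizontal) and E18.5 (vertical), in scaled means per kb on log axes; the diagonal marks equal levels and each point is 1 gene. Thra stands at the top right, Thrb and Rxrg above the diagonal, and Rxra and Rxrb below it.

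Of 11 genes of corepressor complexes, Ncor1 included and all with means of at least 10, 2 were higher, 2 were lower and 7 were between, with a median ratio of 0.920. These shares lie near the 19.6% and 16.5% of all genes. Hr, the hairless corepressor and a known thyroid hormone target in brain, had the highest ratio, at 4.80, with means of 88.6 and 366. By qPCR of wild-type brains of both sexes, the paper reports more Hr mRNA at E18.5 than at E13.5. It also reports more Hr mRNA in Dio3-/- brains at both ages. The part of genotype in the Hr ratio was not tested. Nrip1 had a ratio of 1.57. The lowest were Lcor, a ligand-dependent corepressor, at 0.396, and Sin3a at 0.588. Tbl1x, which joins the NCoR complex, had levels of 21.3 and 19.3.

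Among 19 coactivator genes, the p160 genes included, 4 were higher, 3 were lower and 12 were between, with a median ratio of 0.919, again near the 19.6% and 16.5% of all genes. The highest ratios were those of Ppargc1a and Ppargc1b, which drive mitochondrial genes, with means of 562 and 1498 for the first and a ratio of 2.95 for the second, and of Ncoa7 at 2.44, just ahead of Ncoa1. The highest levels at E18.5 were those of Smarca4, the ATPase of BAF chromatin remodelling complexes, at 69.7, of Prmt1 at 34.6 and of the acetyltransferase Crebbp at 31.9. Smarca4, Prmt1 and Trip12 were the 3 that were lower, with ratios of 0.593, 0.657 and 0.662. Prmt1 and Trip12 lie close to the 1.5-fold limit. Ncoa1 ranked 14 by level among the 19 at E13.5 and 4 at E18.5.

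Of 14 other partners of RXR, 9 had means of at least 10 at both ages, and of these 3 were higher, 1 was lower and 5 were between, with a median ratio of 0.979, beside 19.6% higher and 16.5% lower over all genes. Nr4a2, or NURR1, needed for midbrain dopamine neurons, had the highest level at both ages, at 15.8 and 15.5. Next came Nr1h2, the liver X receptor β, at 11.1 and 7.43, whose ratio of 0.666 was the lowest of the 9, and the retinoic acid receptor Rara, at 7.72 and 5.71. Ppara had the highest ratio, at 2.69, with means of 19.1 and 44.2, followed by Nr4a1 at 1.91 and Rarb at 1.51. The level of Thra at E18.5, 139, exceeded the summed level of all 14 partners, 39.2.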

How the data were processed

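RNA of 14 whole fetal brains was sequenced in 2 batches with different library kits and instruments. Per the study's methods and the submitters' processing notes, the authors trimmed reads with cutadapt 3.1, aligned them with STAR 2.5.3a, filtered with bedtools 2.26.0, counted them per gene of GENCODE M22 with HTSeq without regard to strand, adjusted the counts for batch with ComBat-seq and fitted DESeq2 1.30.1 in R 4.0.3 at each age. The signal used here is the deposited mean normalized count per gene over all libraries of an age, genotypes pooled. The tables also hold the authors' log2 fold changes between genotypes with standard errors, Wald statistics, p-values and adjusted p-values, which were not used; 0 columns held values of single libraries.

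Means were scaled to a sum of 1000000 and divided by merged exon length (GENCODE M21, GRCm38, matched by gene identifier for 41897 of 41934 genes; Python 3.11.15, numpy 2.4.6, pandas 2.3.3). A ratio between ages was counted as higher or lower past 1.5-fold among genes with a mean of at least 10 at both ages. There is no test, as no replicate values were used. The lowest means, each taken as 1 read in 1 library, gave the size factors, and from these came the counting errors. As a check, sums of at most 3 reads matched 100% of the low means within 1e-06. Calculations were tested on simulated data.

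The 9 genes and the lists (nuclear receptor family, corepressor complexes, coactivators, other RXR partners, hormone supply, tissue and cell type markers) were chosen with earlier results of these data known. All 9 genes are described in full. From the lists, at most the 3 genes with the highest level and the 3 with the largest ratio in each direction are named, beside genes whose exons overlap one of the 9 and the label checks. Tissue markers are given by summed level. A few genes that this rule would name are not reported here.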

Additional observations from a re-analysis of the deposited data

How the results depend on the processing

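Under 4 other scalings of the ages (the 75th percentile, the median ratio, no scaling, and a sum without mitochondrial and the 10 most abundant genes) Thra, Thrb, Rxrg and Ncoa1 stayed above 1.5-fold and Rxra below 1/1.5. Their ratios ran from 1.82 to 2.21, 4.39 to 5.34, 4.38 to 5.33, 2.08 to 2.54 and 0.393 to 0.478. Without scaling 2 of the 9 genes were lower, Rxrb being the second, and 28.6% of all genes were lower; the log2 shift of all ratios against the sum scaling was -0.22. Past 2-fold 11.1% of genes were higher and 6.36% lower, and the counts of the 9 genes were 4 and 1, as at 1.5-fold. Length changed the Thra to Thrb multiple to 367.9 and 152.4 (longest transcript) or 140.5 and 58.2 (coding length) at E13.5 and E18.5, and the Rxrg share of the RXR sum at E13.5 to 3.96% and the Rxra share at E18.5 to 29.0% (coding length). Counts within the gene lists are given for the sum scaling alone. Prmt1, Trip12, Nr1h2, Rarb and Dio3 lie so close to the 1.5-fold limit that those counts depend on it. Summing entries that share a symbol changed none of the 9 ratios, as each symbol had 1 entry. No paired analysis was possible because the result comes from no test. Leaving out single libraries was not possible with pooled means. Depth limits Thrb most, at 59.8 normalized counts per library at E13.5.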

Other observations

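Genes that set the supply of hormone to these receptors mostly had higher levels at E18.5. Of 10 such genes 9 had means of at least 10 at both ages. Of these 6 were higher at E18.5, 1 was lower and 2 were between, beside 19.6% higher and 16.5% lower over all genes. Their median ratio was 1.81, beside 0.956 over all genes. The 6 include Dio3, just past the limit at 1.52, whose product degrades the hormone and does not supply it. Dio2, the deiodinase that makes T3 from T4, had means of 14.4 and 375 and a ratio of 30.3. Slco1c1, a T4 transporter of brain endothelium and astrocytes, had a ratio of 5.84, and Ttr, the T4 carrier made by the choroid plexus, 3.70. Slc16a10, the transporter MCT10, was the lower one, with a ratio of 0.498. Dio1 was listed at 0 at E13.5 and had a mean of 0.232 at E18.5. The levels of Ttr and Slc7a5 at E18.5 were 440 and 38.1. Beside these genes, the summed level of 3 choroid plexus markers, Ttr included, was 121 at E13.5 and 444 at E18.5. Ttr itself held 119 and 440 of these sums. The other choroid plexus markers, Folr1 and Kcnj13, had ratios of 2.25 and 2.08. The summed level of 3 astrocyte markers was 5.18 and 30.9, and that of 3 endothelial markers 37.4 and 47.1. The endothelial sum was higher only through Cldn5, with levels of 15.7 and 28.5, while Cdh5 and Pecam1 were lower at E18.5. None of the 9 markers was at 0, though Gfap had a mean of 4.71 at E13.5. The part of these markers in the ratios was not tested. Dio3 itself, the mutated gene, had means of 99.0 and 129 and a ratio of 1.52. As 2 of 6 libraries at E13.5 and 5 of 8 at E18.5 were Dio3-/-, this ratio does not give its course with age in either genotype. By qPCR of wild-type brains the paper reports the opposite direction, with less Dio3 mRNA at E18.5 than at E13.5.

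Other tissue markers also differed. The summed level of 4 leptomeninges markers was 84.1 at E13.5 and 46.6 at E18.5, and that of 3 oligodendrocyte lineage markers 16.4 and 31.1. That of 3 microglia markers was 6.77 and 8.29, and that of 14 brain markers 1527 and 1715. For 4 skeletal muscle markers the sum was 2.28 and 3.17, higher only through Acta1, with levels of 1.11 and 2.89. The levels of the other muscle markers, Myh3, Myog and Ttn, were all lower at E18.5.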
